A study of Homo sapiens with 24 samples.

Results

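Genes for 10 small nuclear and nucleolar RNAs were followed through 2 chromatin immunoprecipitation (ChIP-seq) comparisons. The cells were given as hTert-HME1, a human breast epithelial line that carries telomerase, and their identity was not tested here. The genes were RNU4-2, RNU4-1, RNU5D-1, RNU5A-1, RNU11, RNU12, RNU4ATAC, SNORD118, RN7SK and RMRP. Every site of either table whose edge lay within 1 kb of the hg19 position of a gene was taken as a site of that gene. This gave 8 of the 2191 H3K9ac sites and 10 of the 30475 Rbap46 sites in the deposited tables. The genes were chosen with the H3K9ac and Rbap46 results of these same tables known, so both differences are described here and neither was tested.

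H3K9ac, acetylation of lysine 9 of histone H3, was compared between 3 shControl libraries and 3 shHAT1 libraries of these cells, the latter with a short hairpin RNA against the histone acetyltransferase HAT1. Rbap46 (RBBP7), a histone chaperone that binds HAT1, was compared with input chromatin in 2 untreated libraries each. The shHAT1 libraries carry the names A7, B6 and C5 and the shControl libraries the names shCon2, shCon3 and shCon5. Whether these are separate clones, hairpins or cultures was not stated in the labels used here, and the level of HAT1 in them was not analysed here.

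The spliceosome removes introns and is built from small nuclear RNAs bound by proteins. U4 and U5 serve the major spliceosome, while U11, U12 and U4atac serve the minor spliceosome, which acts on a rare class of introns. SNORD118 encodes U8, a nucleolar RNA needed for processing of ribosomal RNA. RN7SK encodes 7SK, which holds the elongation factor P-TEFb in an inactive complex. RMRP encodes the RNA of RNase MRP, which takes part in ribosomal RNA maturation. RNA polymerase II transcribes the spliceosomal genes of this set and SNORD118, and RNA polymerase III transcribes RN7SK and RMRP. All these genes use short promoters of the small nuclear RNA type, many of them bound by the SNAP complex. Histone acetylation at H3K9 is a mark of active promoters.

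Levels are log2 normalized read concentrations, a measure of reads per site averaged by the authors over the libraries of a group. Values per library and sequencing depth are unknown, so no spread between replicates can be given, and whether neighbouring values in any order below differ beyond that spread cannot be said. One fact of the series bears on the input values. In the 1-Mb window of highest median input on chromosome 22, from 22 to 23 Mb, the median input level was 7.68, against 5.69 on the rest of that chromosome, and in that of chromosome 9, from 134 to 135 Mb, it was 6.63 against 5.73. None of the 10 genes lay in either window. What raised the input in these windows was not tested. Whether the Rbap46 and input libraries came from the same cells as the H3K9ac libraries was not tested either.

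H3K9ac was lower in shHAT1 cells at 8 of the 10 genes, and at 7 of their 8 sites it was lower by 1 or more on the log2 scale, that is by at least 2-fold. The deepest loss lay at RNU4-1, and the smallest lay at RN7SK. RNU12 and RMRP had no H3K9ac site. All 8 sites passed the authors' false discovery rate (FDR) limit of 0.1, because only H3K9ac sites under that limit are listed. Of the sites they tested, 18.0% passed it with a lower level in shHAT1 cells. Since the genes were also chosen with these values known, the count is not evidence about the group. The median difference, shHAT1 minus shControl, was -1.08 over the 8 sites on the log2 scale, a 2.11-fold loss. Over all 2191 sites of the table it was -0.78, a 1.72-fold loss. Lower levels were the rule there, at 2174 of the 2191 sites, and every difference here rests on a scaling of libraries that is not given in the sources used here.

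The U4 genes stood next to each other on chromosome 12 with a site each. U4 pairs with U6 RNA and keeps it inactive until the spliceosome is activated. At RNU4-2 (hg19 chr12:120729570-120730070) the authors' mean H3K9ac level was 10.15 in shControl and 9.03 in shHAT1 cells. The difference of -1.12 left 46.0% of the control level. Its p-value in the authors' deposited table, 3.78e-09, was the smallest of all sites (FDR 3.85e-05), although 199 sites of the table had a larger loss.

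At RNU4-1 (chr12:120730915-120731415) the level was 8.80 in shControl and 7.26 in shHAT1 cells. This difference of -1.54 left 34.4% of the control level, the largest loss among the 10 genes and rank 15 by size in the whole table. Its FDR in the authors' deposited table was 0.000263. RNU4-1 thus started from a level lower by 1.35 than RNU4-2 and lost more. The RNU4-2 site also lay 930 bp from RNU4-1, inside the 1 kb limit, whereas the RNU4-1 site lay 1315 bp from RNU4-2, just outside it. The U4 genes are near-identical copies, and how the authors assigned reads that match both is not given in the sources used here, so the split between the pair is uncertain.

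U5 RNA holds the exons together during both steps of splicing. At RNU5D-1 (chr1:45196696-45197196) the H3K9ac level was 9.11 in shControl and 7.78 in shHAT1 cells, a difference of -1.33 (FDR 0.000143 in the authors' deposited table). At RNU5A-1 (chr15:65588030-65588530) the level was 8.49 in shControl and 7.47 in shHAT1 cells, a difference of -1.02 (FDR 0.00475 in the authors' deposited table). Both U5 genes therefore kept 39.8% and 49.3% of their control levels.

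Each U5 gene has another U5 gene as a neighbour, RNU5F-1 beside RNU5D-1 and RNU5B-1 beside RNU5A-1, within 20 kb in assembly GRCh38.p14. Their hg19 positions were not used here, so no site was assigned to them. The only other H3K9ac site within 100 kb of RNU5A-1 lay 8.26 kb away (chr15:65596655-65597155). Its levels of 8.35 and 7.28 and its difference of -1.07 were close to those of RNU5A-1. The nearest other H3K9ac site to RNU5D-1, 8.16 kb away, had a smaller difference, of -0.68.

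Among genes of the minor spliceosome, RNU11 and RNU4ATAC had H3K9ac sites and RNU12 had none. U11 RNA recognises the 5′ splice site of minor introns. At RNU11 (chr1:28974750-28975250) the level was 9.08 in shControl and 8.04 in shHAT1 cells, a difference of -1.04 (FDR 0.0074 in the authors' deposited table). U4atac takes the place of U4 in the minor spliceosome. At RNU4ATAC (chr2:122288086-122288586) the level was 9.80 in shControl and 8.77 in shHAT1 cells, a difference of -1.03 (FDR 0.00536 in the authors' deposited table). Both genes kept close to the same share of their control level, 48.6% and 49.0%. For RNU12, whose U12 RNA pairs with the branch point of minor introns, the closest H3K9ac site lay 33.49 kb away, and no level is available in the table.

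SNORD118 (chr17:8076768-8077268) had a level of 9.01 in shControl and 7.68 in shHAT1 cells. Its difference of -1.33 equalled that of RNU5D-1, and the authors' deposited table gave it an FDR of 0.00392. RN7SK (chr6:52860028-52860528) had a level of 8.41 in shControl, the lowest of the 8 sites, and 7.68 in shHAT1 cells. Its difference of -0.73 left 60.3% of the control level and was smaller than the median of the whole table. Its FDR in the authors' deposited table was 0.0517, so RN7SK was the one gene of the 8 that did not pass a limit of 0.05. Of the genes transcribed by RNA polymerase III, RN7SK thus had the smallest loss of the set and RMRP had no H3K9ac site within 100 kb. RNU12, transcribed by RNA polymerase II, likewise had no H3K9ac site at the gene. Only called sites are listed, so an H3K9ac site without a called difference cannot be told from no site.

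**Figure D1:**
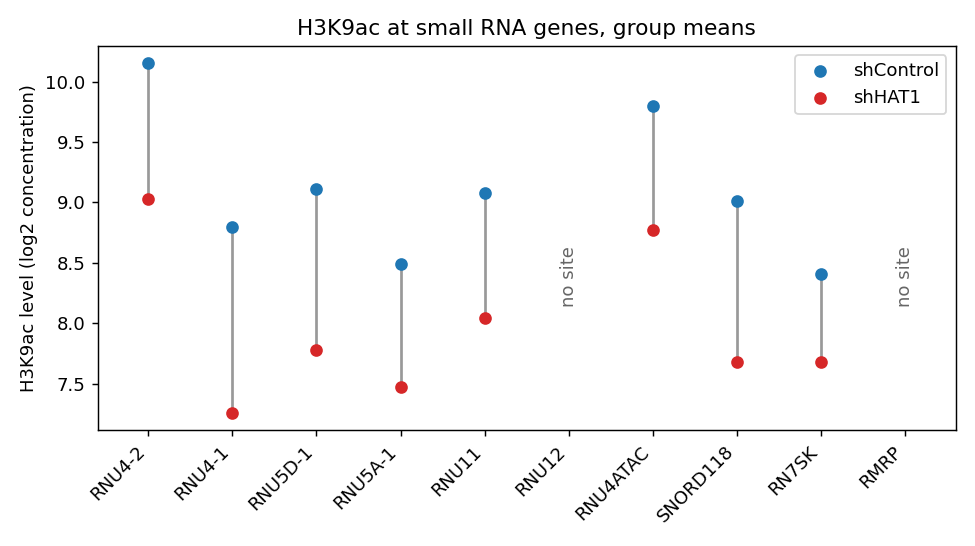
H3K9ac level (log2 normalized read concentration, vertical axis) at each of the 10 genes, with the shControl group mean in blue and the shHAT1 group mean in red, joined by a line; there are no error bars because values per library are unknown. The red point lies below the blue one at all 8 genes with a site, with the longest line at RNU4-1 (-1.54) and the shortest at RN7SK (-0.73).

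The sites of these genes held high ranks by p-value, more so than by size of loss. Of the 5 smallest H3K9ac p-values in the authors' deposited table, 3 belonged to RNU4-2, RNU5D-1 and RNU4-1, at ranks 1, 4 and 5. SNORD118 stood at rank 10, RNU5A-1 at 20, RNU4ATAC at 25 and RNU11 at 29, while RN7SK stood at 870. By size of loss the ranks were 200 for RNU4-2, 51 for both RNU5D-1 and SNORD118, 312 for RNU11, 325 for RNU4ATAC, 339 for RNU5A-1 and 1265 for RN7SK.

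In all, 7 of the 8 sites passed an FDR of 0.01 with a lower level in shHAT1 cells. That limit was passed by 44 of the 2191 sites of the table, or 0.365% of the sites tested. The same 7 sites were lower by 1 or more on the log2 scale. So were 402 sites, or 18.3% of the table and 3.34% of the sites tested. All 8 sites were drawn from the listed sites, so the share of the table is the like comparison. Among those 402 sites the median FDR in the authors' deposited table was 0.0396, and 35 of them, or 8.71%, had an FDR under 0.01. Among the 7 small RNA sites the median FDR was 0.00392 in the same table by the authors. The genes were chosen by these p-values, so the smaller FDR at a given difference may follow from the choice. How much of the smaller FDR comes from the choice was not tested. A p-value depends on the spread between libraries as well as on the difference, and that spread is not in the values used here.

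**Figure D2:**
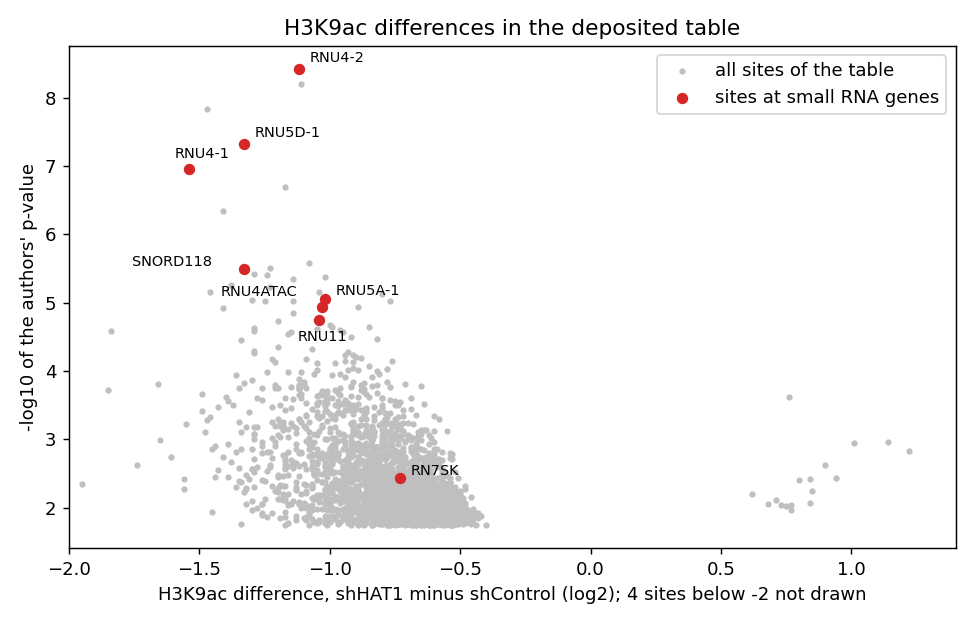
H3K9ac difference between shHAT1 and shControl (log2, horizontal axis) against -log10 of the authors' p-value (vertical axis) for all sites of the deposited table in grey, with the 8 sites at small RNA genes in red; 4 sites below -2 are not drawn. RNU4-2 is the highest point, and 7 of the 8 red points lie to the left of -1 while RN7SK lies low within the grey cloud.

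High ranks did not come with high levels. The shControl level of the 8 sites ran from 8.41 to 10.15 with a median of 9.05, against 9.27 in the whole table, and 6 of the 8 were below the table median. RNU4-2 and RNU4ATAC were the exceptions. In shHAT1 cells the median of the 8 sites was 7.73, against 8.50 in the table. All 8 sites had the smallest width of 501 bp, as did 78.5% of the H3K9ac sites of the table.

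The 3 sites elsewhere whose 4 group means lay closest to those of RNU4-2 were sought among 1661 H3K9ac sites that overlap an Rbap46 site. The closest lay at chr16:3030090-3030983, with an H3K9ac difference of -0.94 (FDR 0.0412 in the authors' deposited table). Next came chr11:4115938-4116438, with a difference of -1.14 (FDR 0.0426 in the authors' deposited table), and chr6:86388004-86388504, with a difference of -0.93 (FDR 0.0229 in the authors' deposited table). RNU4-2 itself was chosen with its small p-value known, so nothing is read from the larger FDR of these sites.

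Rbap46 was above input at all 10 genes, but by no more than was usual among its called sites. Every one of the 10 sites had a positive difference at an FDR up to 0.05. So did all 30425 listed sites with a positive difference, which were 37.6% of the sites tested by the authors. Nothing can be read from this count, since the listing fixed it and the genes were chosen with it known. The median difference, Rbap46 minus input, was 0.99, a 1.99-fold enrichment. Over the whole table it was 1.05, and 7 of the 10 small RNA sites were below that median. A difference of 1 or more on the log2 scale was reached by 4 of the 10 sites, against 58.0% of the sites of the table and 21.9% of the sites tested. The strongest enrichment lay at RN7SK and RMRP and the weakest at RNU5A-1.

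RN7SK (chr6:52860018-52860518) had an authors' mean level of 7.81 in Rbap46 and 6.65 in input, a difference of 1.16 that corresponds to 2.23-fold. RMRP (chr9:35657645-35658145) had levels of 7.57 and 6.42, a difference of 1.15. Their FDR values in the authors' deposited table were 6.92e-08 and 2.89e-07. The genes transcribed by RNA polymerase III thus stood first in the order of Rbap46 enrichment within the set, while they stood at 63.7% and 62.6% in the order of all sites of the table, counted from the lowest difference.

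RNU4-2 had 2 Rbap46 sites. The one over the gene (chr12:120729575-120730075) had levels of 7.73 in Rbap46 and 6.66 in input, a difference of 1.07 (FDR 1.23e-06 in the authors' deposited table). Another, 515 bp from the gene, had levels of 6.64 and 5.66, a difference of 0.98. RNU4-1 had no Rbap46 site of its own. It counts among the 10 genes only because the RNU4-2 site lay 925 bp from it, so the gene with the deepest H3K9ac loss was the one gene of the 8 with H3K9ac sites whose H3K9ac site did not overlap Rbap46.

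SNORD118 (chr17:8076612-8077112) had levels of 6.92 in Rbap46 and 5.90 in input, a difference of 1.02. RNU5D-1 (chr1:45196235-45197232, a merged site of 998 bp) had levels of 7.77 and 6.78, a difference of 0.99. RNU11 (chr1:28974513-28975013) had the highest levels of the set, 8.08 and 7.09, and also a difference of 0.99. These 3 genes lay close to the median of the table.

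RNU4ATAC (chr2:122288098-122288598) had levels of 7.32 and 6.38, a difference of 0.94. RNU12 (chr22:43010948-43011448) had levels of 7.24 and 6.36, a difference of 0.88 (FDR 0.000443 in the authors' deposited table). RNU5A-1 (chr15:65588048-65588548) had levels of 6.71 and 6.07, a difference of 0.64 or 1.56-fold. Its FDR in the authors' deposited table was 0.0373, and it was the one site of the 10 that did not pass 0.01. The limit of 0.01 was passed by 27.6% of the sites tested.

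**Figure D3:**
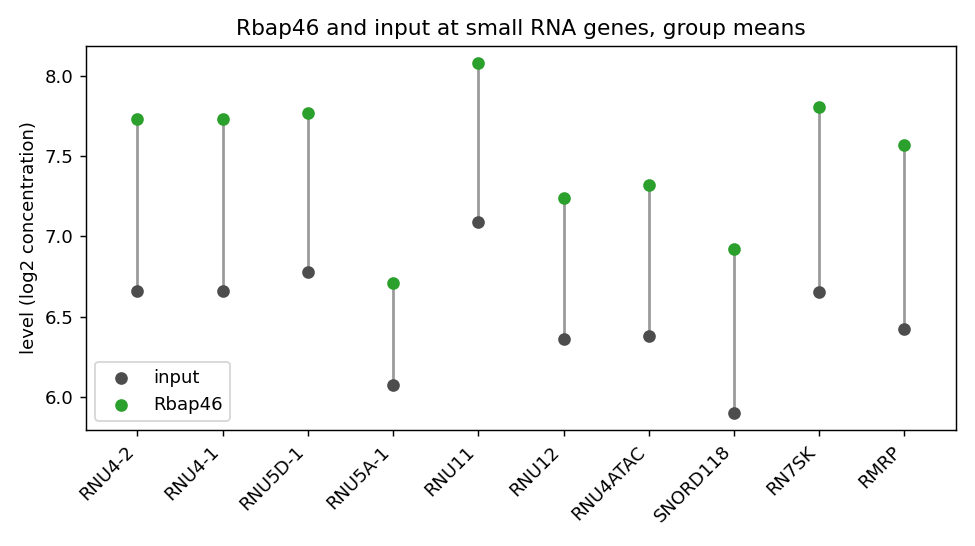
Rbap46 (green) and input (dark grey) level in log2 normalized read concentration at the site nearest to each gene, as group means without error bars; RNU4-2 and RNU4-1 share a site. The green point lies above the grey one at all 10 genes, by 0.64 at RNU5A-1 and by 1.16 at RN7SK.

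Both the Rbap46 level and the input level were high at these genes. The input level exceeded the table median of 5.84 at 9 of the 10 sites, with a median of 6.40 and a range from 5.66 to 7.09. The Rbap46 level exceeded its table median of 6.85 at 8 of the 10 sites, with a median of 7.45. Set against the median input of its own chromosome, each site differed by between -0.11 and 0.97, and 9 of 10 lay above it. RNU11 was the highest, by 0.97, and RNU12 on chromosome 22 was higher by 0.62. A high input level thus moved with a high Rbap46 level at these sites, and its part in the Rbap46 values was not tested. At RNU5A-1 and SNORD118 the input level was near that of the chromosome, higher by 0.22 and 0.04.

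**Figure D4:**
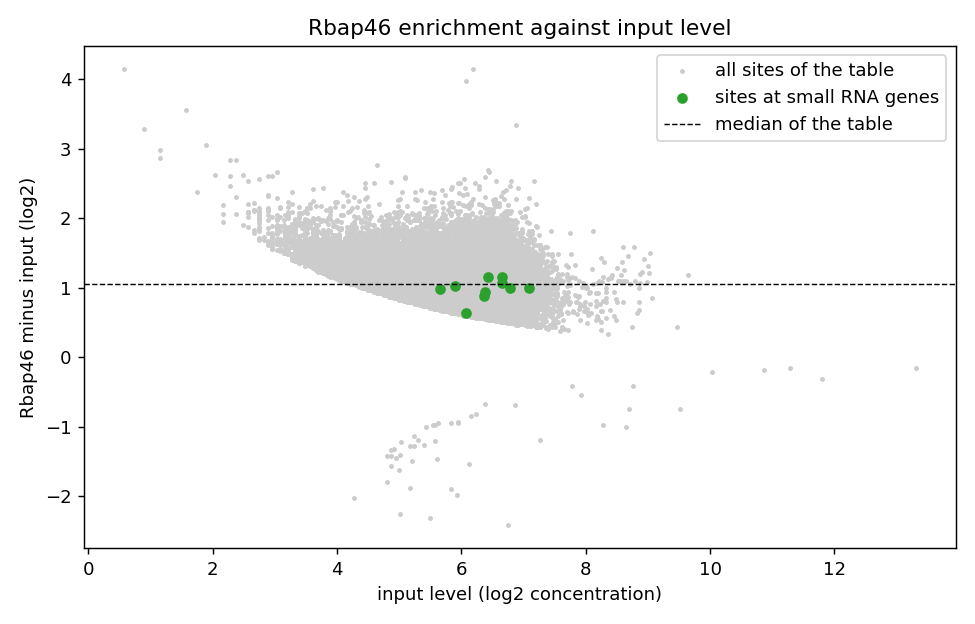
Input level (log2, horizontal axis) against Rbap46 minus input (log2, vertical axis) for all sites of the deposited table in grey and for the 10 sites at small RNA genes in green; the dashed line is the table median of 1.05. Of the 10 green points, 9 lie to the right of the table's median input of 5.84 and 7 lie below the dashed line.

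The order of the genes by H3K9ac loss was not that by Rbap46 enrichment. Whether both comparisons came from the same cells was not tested, so the values are only set side by side. RN7SK had the most positive Rbap46 difference, 1.16, and the smallest H3K9ac difference, -0.73. RNU5A-1 had the lowest Rbap46 difference, 0.64, with an H3K9ac difference of -1.02. RNU5D-1 and RNU11 shared an Rbap46 difference of 0.99 but differed in H3K9ac, with -1.33 and -1.04. Both tables had a site within 1 kb at 8 of the 10 genes, and 7 of the 8 H3K9ac sites overlapped an Rbap46 site. Over all H3K9ac sites of the table the share was 76.1%, so this count is near that of the table.

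At the 7 overlapping pairs the centres of the H3K9ac and the Rbap46 site often lay almost on top of each other. The distance was 5 bp at RNU4-2, 10 bp at RN7SK, 12 bp at RNU4ATAC and 18 bp at RNU5A-1. It was 156 bp at SNORD118, 212 bp at RNU5D-1 and 237 bp at RNU11. The median was 18 bp, against 158 bp over the 1668 H3K9ac sites of the table that overlap an Rbap46 site. A distance of at most 20 bp was found at 4 of the 7 pairs and at 10.6% of the pairs of the whole table. All H3K9ac sites of the set were 501 bp wide, against 78.5% of those in the table, and the distances were not matched for width. The gene positions lay inside the H3K9ac site at all 8 genes that had one, and inside the Rbap46 site at 8 of 10, the exceptions being RNU4-1 and RNU11, where the Rbap46 site ended 87 bp away.

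**Figure D5:**
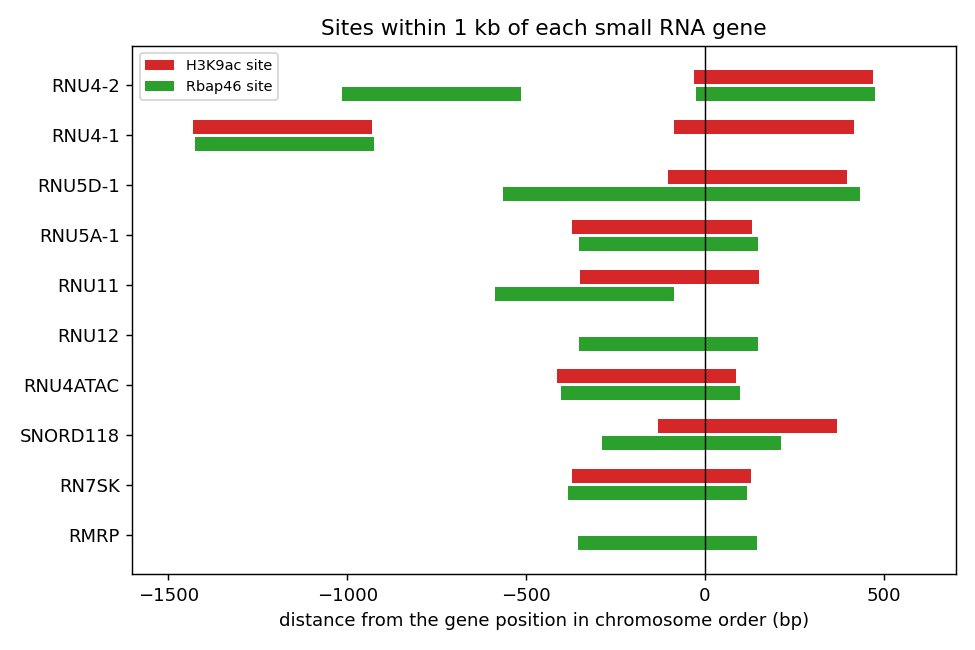
H3K9ac sites (red) and Rbap46 sites (green) within 1 kb of each gene, drawn to scale as distance in bp from the gene position (vertical line), in the direction of chromosome coordinates and not of transcription. Red and green bars nearly coincide at RNU4-2, RN7SK, RNU4ATAC and RNU5A-1, and RNU12 and RMRP have a green bar only.

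The H3K9ac loss of each gene was then set beside that of its surroundings. The genes were chosen with their H3K9ac values known, whereas the neighbouring sites were not chosen. A smaller p-value or a larger loss at the gene may therefore follow from the choice, and the values only describe each locus. RNU4ATAC and RN7SK had no other H3K9ac site within 100 kb. At RNU5D-1, RNU11 and SNORD118 the own site had a larger loss and a smaller p-value than all other H3K9ac sites within 100 kb, which numbered 6, 2 and 6. Next to RNU11 the site 4.93 kb away had a difference of -0.66, against -1.04 at RNU11. Around SNORD118 the largest loss of the other sites was -1.22 (chr17:8057885-8058385), against -1.33 at SNORD118. Apart from their own pair of sites, RNU4-2 and RNU4-1 had 2 others within 100 kb of RNU4-1, with a largest loss of -0.77. RNU5A-1 was the exception, with its neighbour at -1.07 slightly beyond its own -1.02, although its own p-value was smaller, at rank 20 against 46.

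For Rbap46, at 9 of the 10 genes another Rbap46 site within 100 kb had a larger difference and a smaller p-value than the site at the gene, such as 1.57 at 8.97 kb from RNU4-1 and 1.59 at 13.39 kb from SNORD118. RN7SK, with 3 other Rbap46 sites in that range, was the one gene whose own site had the smallest p-value, though 1 of these others had a larger difference, 1.27. The Rbap46 difference was exceeded by another site in range at all 10 genes. The share of all Rbap46 sites with such a neighbour was not computed, so neither count is read as a trait of these genes.

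Several of the genes share their position with other genes, from which reads at a site cannot be told apart. By the annotation of GRCh38.p14, RNU4-1 and RNU4-2 lie within SIRT4, RNU4ATAC within CLASP1, SNORD118 within TMEM107 and RNU11 within TAF12-DT. RNU12 has POLDIP3 close by, RMRP has CCDC107 and ARHGEF39, and RN7SK has GSTA4. RNU5D-1 and RNU5A-1, with H3K9ac differences of -1.33 and -1.02, had no other gene within 2 kb. Each has another U5 gene within 20 kb. How the authors assigned reads that match several U5 genes is not given in the sources used here.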

How the data were processed

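The series has 24 libraries in 9 groups, of which 4 groups with 10 libraries are in the tables used; the other 14 libraries, for HAT1 and the H4 marks, were not used here. Per the submitters' processing notes, the build was hg19 and the tools were cutadapt 1.8.1, Bowtie2, SAMtools 1.2, Picard 1.92, MACS2 2.1.0, R 3.3.1, DiffBind and DESeq2, with no role or order given. Per the file headers, the authors deposited log2 mean concentrations per group, a log2 fold, and a p-value and FDR per site; their scaling is not given in the sources used here. With group means only, no model was fitted and no interval could be computed, and the precision set by depth is unknown.

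Differences were recomputed from the rounded group means as shHAT1 minus shControl and Rbap46 minus input, and differed from the deposited fold by at most 0.01. The number of sites tested was inferred from p-value, rank and FDR, as 12047 to 12049 for H3K9ac and 80824 to 80834 for Rbap46; the method was tested on simulated data. Genes, lists and the check of raised input (windows with at least 10 sites) were chosen with earlier results of these data known. Gene positions were known to 100 bp. Sites overlapped if they shared at least 1 bp. The genes named are the 10 chosen ones and the 3 sites closest to RNU4-2 in Euclidean distance over 4 group means. Names of neighbouring genes came from RefSeq (GRCh38.p14), which matched 10 of 10 genes and was used for names and for which genes overlap or lie within 2 kb (small RNA genes, 20 kb) of each other in that assembly, not for positions in the tables. Other genes with such promoters, and promoter motifs, were not analysed here. Alternatives were other distances, FDR limits, a minimum difference and 1 site per gene. Python 3.11, numpy 2.4.6, pandas 2.3.3 and matplotlib 3.10.9 were used.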

Additional observations from a re-analysis of the deposited data

How the results depend on the processing

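The median H3K9ac difference of -1.08 became -1.12 at an FDR under 0.05 and -1.12 at an FDR under 0.01, because both limits removed RN7SK. Requiring a difference of at least 1 on the log2 scale left 7 of 8 genes with an H3K9ac site, 5 of 10 genes with an Rbap46 site and 3 of 8 genes with both; 21.9% of the Rbap46 sites tested reached it. Within 500 bp, RNU4-1 lost its Rbap46 site, which left 9 genes with an Rbap46 site and 7 with both. The other alternatives left the medians in place and the counts within 1.5 times, with every direction kept. No paired analysis was possible because only means of each group were given; leaving out a replicate was not run for the same reason. Depth per library is unknown, and the H3K9ac table used holds called sites only, so at RNU12 and RMRP an H3K9ac site without a called difference cannot be told from no site.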
